A study of Homo sapiens with 4 samples.

Results

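The 3 guide strands of the miR-148 and miR-152 family, miR-148a, miR-148b and miR-152, were followed in HepG2 cells after berberine treatment. HepG2 is an established human hepatoma cell line, and berberine is a plant isoquinoline alkaloid. The 3 members were those listed on the array as hsa-miR-148a, hsa-miR-148b and hsa-miR-152 without an asterisk, out of 851 human miRNAs. The treated cultures received berberine chloride at 40 µM and the control cultures the solvent dimethyl sulfoxide (DMSO) at 0.08%, and RNA was taken after 2 h and 4 h. Each of the 4 conditions (control 2 h, berberine 2 h, control 4 h, berberine 4 h) was measured on 1 Agilent miRNA microarray, and 1 slide and 1 scan held all of the arrays. Without replicates the variation from culture to culture cannot be known, and a single time has no p-value. The HepG2 label was compared with marker miRNAs of several cell types. All 4 hepatic markers were detected on all 4 arrays, with miR-192 the brightest and miR-122, the hallmark miRNA of hepatocytes, at a total signal of 22.4 to 39.9. The unscaled signals of these 4 summed to 2085 for control and 1370 for berberine at 2 h, and to 1701 and 2594 at 4 h. The 4 muscle and 2 neural markers were detected on none. Of the 5 blood cell markers, miR-142-3p and miR-451 were detected at 6.13 and 5.31 with berberine at 4 h alone, and the other 3 on none. Of the 5 fibroblast and vascular markers, miR-145 was detected on all 4 arrays at 19.7 to 42.3, miR-143 at 3.95 with berberine at 4 h alone, and the other 3 on none. The part of these few miRNAs in the ratios below was not tested.

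A miRNA guide strand is loaded onto an Argonaute protein and pairs with messenger RNAs mainly through its seed, the bases near its 5′ end. Members of a family share the seed and so can recognise overlapping sets of targets. The miR-148 and miR-152 family is known for repressing DNA methyltransferase 1, and miR-148a, an abundant miRNA of the liver, is also known for repressing the LDL receptor and the cholesterol exporter ABCA1. The messenger RNA arrays of the study were not analysed here.

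The mature sequences are shown because they define the family, and because they show how little sequence separates what the probes had to distinguish. They come from RefSeq on GRCh38.p14, where all 3 members were matched under the names miR-148a-3p, miR-148b-3p and miR-152-3p, and capitals mark the seed at bases 2 to 8.
hsa-miR-148a: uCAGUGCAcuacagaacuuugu
hsa-miR-148b: uCAGUGCAucacagaacuuugu
hsa-miR-152: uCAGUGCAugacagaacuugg
Counted from 1 at the 5′ end, miR-148a and miR-148b differed by C9U and U10C and were identical at 20 of 22 bases. From miR-148a to miR-152 the differences were C9U, U10G and U20G, with 18 of 21 compared bases identical. From miR-148b to miR-152 they were C10G and U20G, with 19 of 21 identical. All of the differences thus lay outside the seed. The seed occurred in 3 of 2370 mature miRNAs of the table (0.127%), and these 3 were the members. The files name the probes without their sequences, so cross-hybridisation between members was not tested.
The members come from 3 chromosomes. Mature miR-148a lies on the minus strand at chr7:25949922-25949943, and its hairpin MIR148A is inside the interval of the long non-coding RNA gene LOC105375199. Mature miR-148b lies on the plus strand at chr12:54337278-54337299, inside COPZ1, and mature miR-152 on the minus strand at chr17:48037174-48037194, inside COPZ2. Each hairpin and its surrounding gene have the same strand. COPZ1 and COPZ2 are paralogs that encode the zeta subunit of the coatomer, a coat of transport vesicles.
The opposite arms of the hairpins are printed for miR-148b and miR-152, again with the seed in capitals, since they show that the passenger strands carry other seeds.
hsa-miR-148b-5p: aAGUUCUGuuauacacucaggc
hsa-miR-152-5p: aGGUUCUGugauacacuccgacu
A hexamer of the family seed, AGUGCA, also occurs within bases 2 to 8 of 10 miRNAs of the table with another seed (13 of 2370, or 0.549%, with the members included), among them miR-130b, miR-301a, miR-301b and miR-454 of the miR-130 and miR-301 family. miR-130a of that family was not matched in the table. For 2 of these the hexamer is in capitals below.
hsa-miR-130b: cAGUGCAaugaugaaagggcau
hsa-miR-301b: cAGUGCAaugauauugucaaagc

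miR-148a was detected on all 4 arrays. Its total signal, the background-subtracted intensity summed over its probes, at 2 h was 1870 ± 133 for control and 1253 ± 89.7 for berberine (errors as given by the Feature Extraction software). At 4 h it was 1593 ± 114 for control and 2313 ± 165 for berberine. The berberine arrays thus held both the lowest and the highest of the 4 unscaled signals.
miR-148b was also detected on all 4 arrays, with total signals of 135 ± 12.0 for control and 94.5 ± 8.49 for berberine at 2 h. The values at 4 h were 116 ± 10.2 for control and 166 ± 14.4 for berberine. The order of the arrays was the same as for miR-148a.
miR-152 was dim. Its total signal was 6.14 ± 1.28 on the control array at 2 h, 6.48 ± 1.62 on the control array at 4 h and 8.49 ± 1.47 on the berberine array at 4 h. On the berberine array at 2 h it was not detected, and the file holds the value of 0.1 written for undetected miRNAs.

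The same order was present in the brightness of the arrays as a whole. The 75th percentile of the signal, taken over the 197 human miRNAs that every array detected, was 243 for control and 169 for berberine at 2 h, and 225 for control and 297 for berberine at 4 h. Human miRNAs detected numbered 235, 199, 226 and 242 in the same order. Each signal was therefore divided by that percentile of its array and taken on the log2 scale.
After scaling, miR-148a stood at 2.94 for control and 2.89 for berberine at 2 h, and at 2.82 and 2.96 at 4 h, each with an error of 0.10 on the log2 scale. From high to low the order was berberine 4 h, control 2 h, berberine 2 h and control 4 h, and no neighbours in it differed by more than their errors. The whole range was 0.14, beside a median range of 0.27 over the 197 miRNAs and of 0.20 over the brighter 98 of them.
Scaled miR-148b stood at -0.85 for control and -0.84 for berberine at 2 h, and at -0.96 and -0.84 at 4 h, with errors of 0.13. The control array at 4 h was lowest and the other 3 were almost level, and the range over all 4 was 0.12. For miR-152 the scaled values were -5.31 (error 0.30) on the control array at 2 h, -5.12 (error 0.36) on the control array at 4 h and -5.13 (error 0.25) on the berberine array at 4 h. These 3 values did not differ by more than their errors.
Ordered by signal from the brightest of the 197 miRNAs, miR-148a was at place 8 on every array, and 6 of the 197 miRNAs (3.05%) kept 1 place on all 4. miR-148b was at place 74 on 3 arrays and at 76 on the berberine array at 2 h. Probes of different miRNAs bind with different strength, so a place in this order is not an amount.

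**Figure D1:**
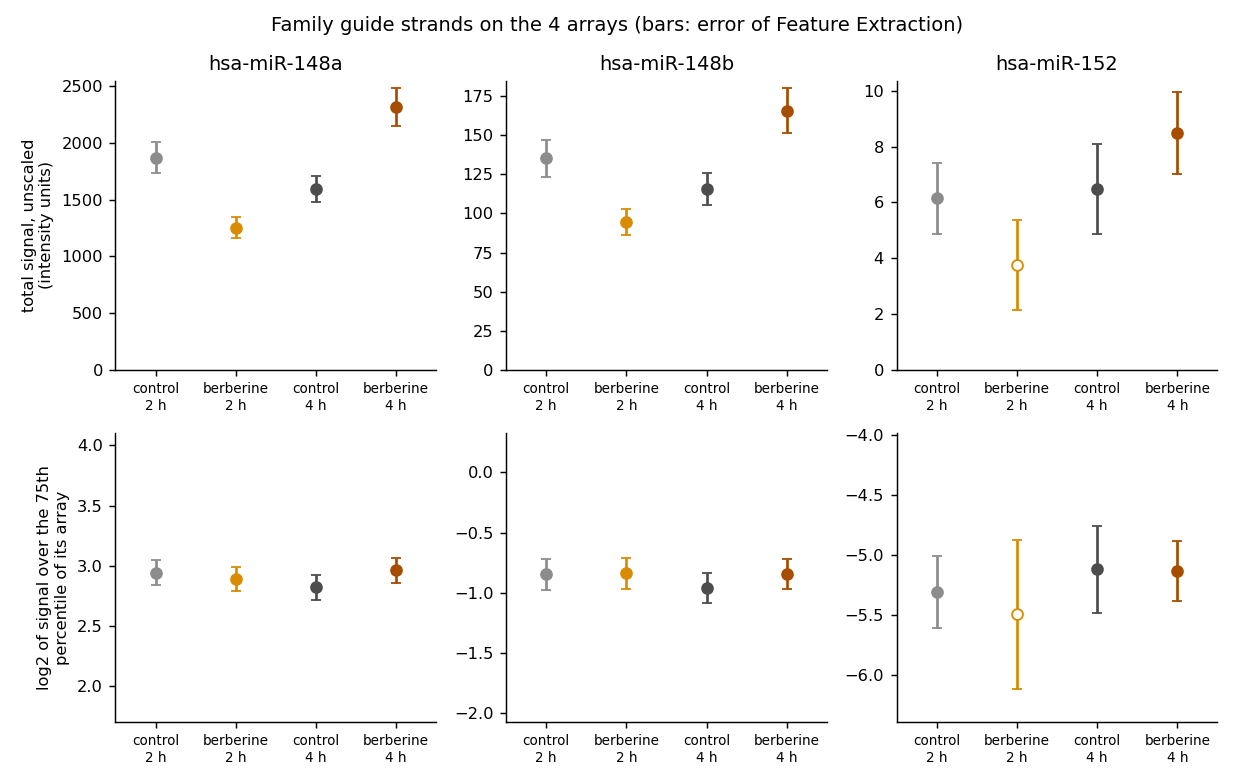
Total signal in intensity units (top) and log2 of the signal over the 75th percentile of its array (bottom) for each family member on the 4 arrays, with the error of Feature Extraction as bars. The open symbol is the second probe of miR-152 on the berberine array at 2 h, where miR-152 was not detected. The unscaled signals of miR-148a run from 1253 to 2313, and the scaled values lie within 0.14 of each other.

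The comparison of berberine with control at each time asks whether a member changed early in treatment. The log2 ratio of miR-148a after scaling was -0.052 (SE 0.15) at 2 h and 0.14 (SE 0.15) at 4 h, or 0.964-fold and 1.10-fold. The 95% ranges from the measurement error were -0.34 to 0.23 and -0.15 to 0.42. For miR-148b the log2 ratio was 0.0075 (SE 0.18) at 2 h and 0.12 (SE 0.18) at 4 h, or 1.01-fold and 1.09-fold, with ranges of -0.35 to 0.36 and -0.23 to 0.47. At 4 h the log2 ratio of miR-152 was -0.0091 (SE 0.44), with a wide range of -0.87 to 0.85. Of these 5 ratios, 0 differed from no change by more than 1.96 SE, and 0 were past 2-fold. Without scaling 2 of 2 lay beyond 1.96 SE at 2 h and 2 of 3 at 4 h, beside median log2 ratios over all miRNAs of -0.55 and 0.51. With the 75th percentile over all 851 miRNAs 2 of 2 were beyond 1.96 SE and past 2-fold at 2 h. In that setting 197 miRNAs were past 2-fold at 2 h. The SE holds the measurement error alone, without any variation from culture to culture.
Among all human miRNAs with a ratio, 1.02% were past 2-fold in either direction at 2 h and 0.917% at 4 h, and 9.14% and 11.5% lay beyond 1.96 SE. The median log2 ratio over all of them was -0.02 at 2 h and 0.11 at 4 h. Relative to that median, miR-148a was at -0.032 and 0.031, miR-148b at 0.028 and 0.010, and miR-152 at -0.12 at 4 h. The positive values of miR-148a and miR-148b at 4 h therefore lay close to the general shift in the scaling used here. They were at -0.033 and -0.053 with scaling to the median, beside a median over all miRNAs of -0.063. They were at -0.27 and -0.29 with the 75th percentile over all 851 miRNAs, beside -0.30. The brightest probe alone gave -0.040 and -0.013, beside -0.083. Under normexp background correction miR-148a and miR-148b lay further from the median over all miRNAs. There they were at 0.16 and -0.016 at 4 h, beside -0.18, and at -0.15 and 0.10 at 2 h, beside 0.22. Without scaling the ratios were 0.670-fold and 1.45-fold for miR-148a and 0.699-fold and 1.43-fold for miR-148b, beside unscaled median log2 ratios over all miRNAs of -0.55 and 0.51.
From 2 h to 4 h the log2 ratio of berberine over control differed by 0.19 (SE 0.21) for miR-148a and by 0.11 (SE 0.25) for miR-148b. Neither difference exceeded 1.96 SE, beside 14.2% of the 197 miRNAs that did so in either direction and 7.61% that did so above 0.
The control arrays, neither of which held berberine, give a background for these values. From 2 h to 4 h the log2 ratio of the controls was -0.12 (SE 0.15) for miR-148a, -0.11 (SE 0.18) for miR-148b and 0.19 (SE 0.47) for miR-152. Of 219 miRNAs, 2.28% were past 2-fold and 6.85% beyond 1.96 SE in this comparison, and 0 of the 3 members were either. In size these differences lay close to those of miR-148a and miR-148b between berberine and control at 4 h and above those at 2 h, and that of miR-152 was above its own at 4 h. With the 75th percentile over all 851 miRNAs 2 of the 3 members lay beyond 1.96 SE between the control arrays, where the median over all miRNAs was 0.42. Time and array cannot be told apart here.

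**Figure D2:**
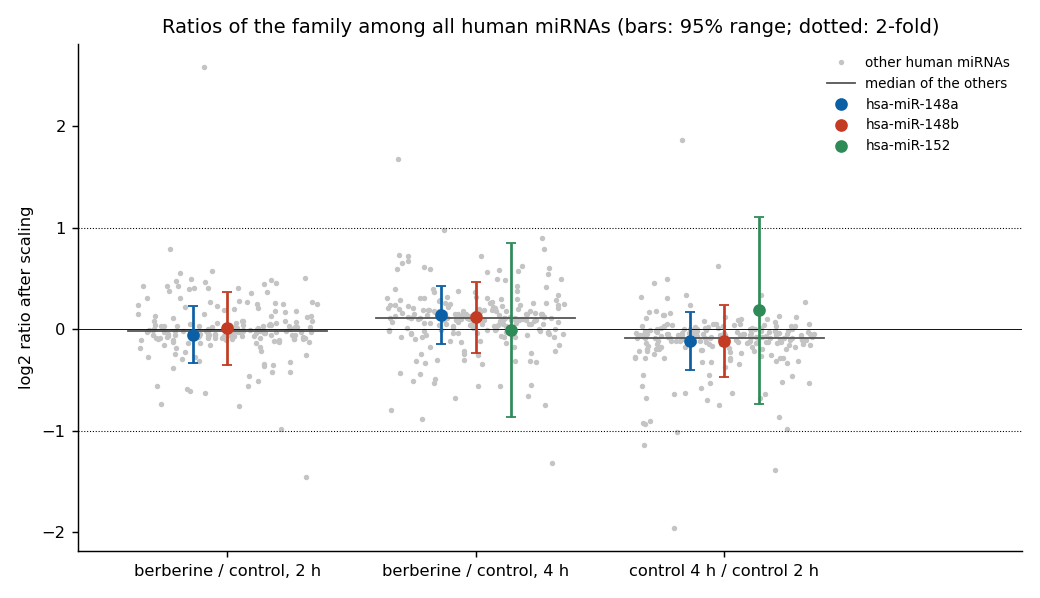
Log2 ratios after scaling for berberine over control at 2 h and 4 h and for the control arrays, with 1 grey point per human miRNA, its median as a line, and the family members in colour with bars of 1.96 SE. All coloured points lie between the dotted 2-fold lines, and miR-152 has no point at 2 h.

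A change of 1 member against another can be read without any scaling, because the brightness of an array cancels within it. The ratio of miR-148a minus that of miR-148b was -0.060 (SE 0.23) at 2 h and 0.021 (SE 0.23) at 4 h on the log2 scale, and -0.0058 (SE 0.23) between the control arrays. The 95% range of the difference was -0.52 to 0.40 at 2 h and -0.43 to 0.47 at 4 h. At 4 h, miR-148a and miR-148b exceeded miR-152 by 0.15 (SE 0.46) and 0.13 (SE 0.47). Between the control arrays the same differences were -0.31 (SE 0.49) and -0.30 (SE 0.50). None of these 7 differences lay beyond 1.96 SE of 0, although ranges of this width leave room for unequal changes, above all for miR-152.

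In addition, limma was applied to the 4 arrays at once with terms for time and treatment, and the 2 times served as replicates of a kind, which leaves 1 residual degree of freedom. The fit drew the variance of each miRNA toward a value pooled over all of them, with 54.2 prior degrees of freedom. Its SE and p therefore rest mostly on that pooled variance. For miR-148a the ratio from limma was 0.043 on the log2 scale (SE 0.21), with an adjusted p of 0.997. For miR-148b it was 0.063 on the same scale (SE 0.21), also with an adjusted p of 0.997 in limma. Over the 197 miRNAs of the fit 1 passed an adjusted p of 0.05 (0.508%), which was hsa-miR-21*, and 9 had an unadjusted p under 0.05. In 11 of 16 alternative settings limma called 0 miRNAs, and the call of hsa-miR-21* was lost. miR-152 was not in this fit, which needs detection on all 4 arrays. With its probe 2 kept on every array, the undetected one included, a limma fit of 198 miRNAs chosen after the data were seen gave -0.098 (SE 0.21), at an adjusted p of 0.997.

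Each member had 2 probes with 8 spots per probe and array. All 64 spots of miR-148a and all 64 of miR-148b were well above background, and none was saturated. For miR-148a, probe 1 gave log2 ratios of -0.099 at 2 h and 0.14 at 4 h, and probe 2 gave -0.017 and 0.14 (SE 0.20 for each). The probes of miR-148b differed in sign at 2 h, with -0.015 (SE 0.21) for probe 1 and 0.15 (SE 0.28) for the dimmer probe 2, and gave 0.13 and 0.082 at 4 h. Between the control arrays, too, the probes of miR-148b had opposite signs, at -0.15 (SE 0.21) and 0.12 (SE 0.25).
For both probes of miR-148a and of miR-148b, the spots scattered less than the errors of Feature Extraction. On 1 array the coefficient of variation over 8 spots was 3.37% to 7.94% for the probes of miR-148a, while the error of a probe was 10.0% on every array. For probe 2 of miR-152 the spots scattered more than the error of the probe at 4 h, with a coefficient of variation of 32.3% for control and of 21.6% for berberine. By the scatter of spots not marked as outliers, the ratio of probe 2 of miR-148a at 4 h was 0.16 with a standard error of 0.031, and the berberine spots lay above the control spots with no overlap. The same probe separated the control arrays just as fully, at -0.11 with a standard error of 0.026. Spots of 1 array are not separate samples, and both values are differences between arrays.
Probe 1 of miR-152 carried no signal, with a probe signal between -0.64 and -0.23 on the 4 arrays, so the total signal of miR-152 was that of probe 2 alone. On probe 2, spots well above background numbered 5 of 8 on the control array at 2 h, 2 of 8 on the control array at 4 h and 8 of 8 on the berberine array at 4 h. On the berberine array at 2 h 0 of 8 were, and the probe signal was 3.75 ± 1.62, below the limit of 3 errors (4.86) that detection required. The log2 ratio of this probe at 2 h, which rests on that undetected signal, was -0.19 (SE 0.69) with a range of -1.54 to 1.17, so neither a rise nor a fall of miR-152 could be read at 2 h.

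**Figure D3:**
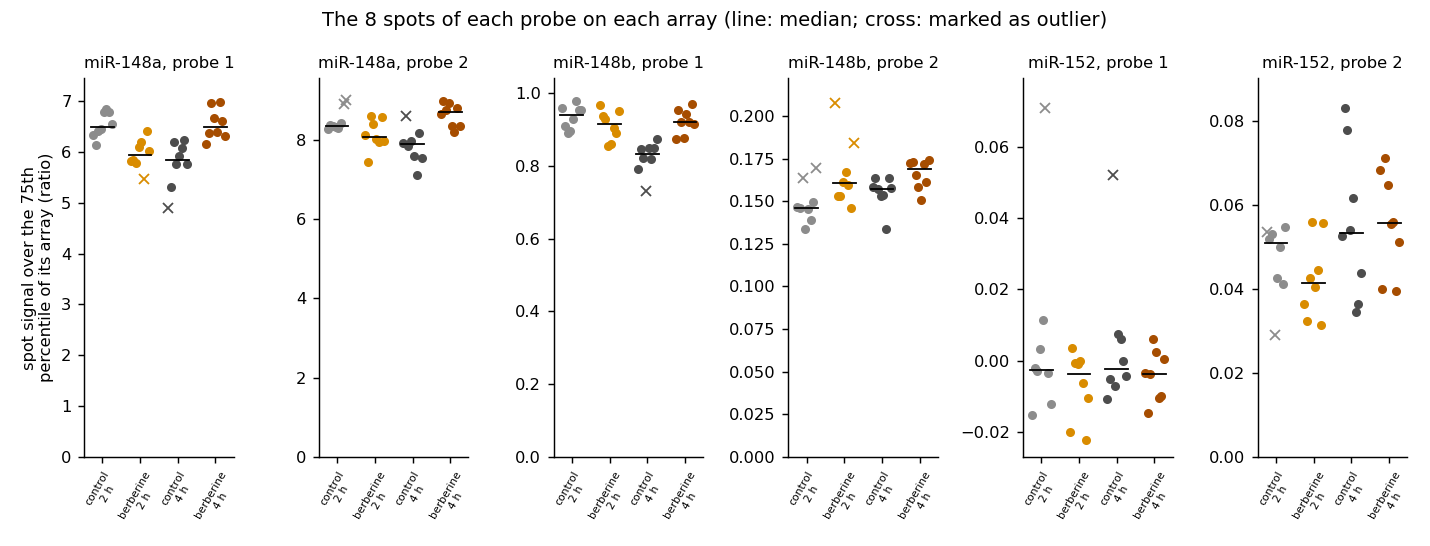
Signal of each of the 8 spots of a probe over the 75th percentile of its array, for both probes of each member on the 4 arrays, with the median as a line and crosses for spots that Feature Extraction marked as outliers. The control spots at 4 h tend to lie low for probe 1 of miR-148b, and probe 1 of miR-152 scatters around 0.

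The passenger strands were at or near the limit of detection. hsa-miR-148a*, the other arm of MIR148A, had total signals of 4.17 ± 0.702 and 3.1 ± 0.801 on the control arrays at 2 h and 4 h and of 3.90 ± 0.709 on the berberine array at 4 h. It was not detected on the berberine array at 2 h. Its log2 ratio at 4 h was -0.066 (SE 0.46). hsa-miR-148b* was detected on none of the 4 arrays. The other arm of the miR-152 hairpin was not analysed here.

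The human miRNAs whose scaled profiles lay nearest to that of a member were found by the root mean square distance over the 4 arrays, each profile being centred on its own mean. For miR-148a these were miR-25 (distance 0.010), miR-20a (0.015) and miR-29a (0.017). For miR-148b they were miR-18b (0.0095), miR-130b (0.012) and miR-455-3p (0.013). The median distance to the 196 other miRNAs was 0.090 from miR-148a and 0.093 from miR-148b. The distance between miR-148a and miR-148b was 0.028, which put miR-148b at place 16 from miR-148a and miR-148a at place 15 from miR-148b. The profiles nearest to the members were thus flat as well, and 4 arrays cannot rank profiles that differ by less than the errors. No profile could be formed for miR-152.
The 5 miRNAs followed of the miR-130 and miR-301 family, miR-130a, miR-130b, miR-301a, miR-301b and miR-454, had log2 ratios of -0.045 to 0.032 at 2 h and of 0.049 to 0.21 at 4 h. Of the 5, 0 lay beyond 1.96 SE at either time, beside 9.14% and 11.5% of all miRNAs. Their median was -0.017 at 2 h and 0.11 at 4 h, level with that of all human miRNAs.

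A first list held 8 miRNAs that, like the family, are known as repressors of DNA methyltransferases, and 5 of them were detected on all 4 arrays. miR-29a, miR-29b and miR-29c are known to act on DNMT3A and DNMT3B and miR-185 on DNMT1, and miR-101 was the other. At 2 h their log2 ratios ran from -0.089 to -0.017, with a median of -0.032 beside -0.02 for all human miRNAs. At 4 h they ran from 0.18 to 0.26, with a median of 0.23 beside 0.11. Of the 5, 0 lay beyond 1.96 SE at either time, against a background of 9.14% and 11.5%, and 0 were past 2-fold, against 1.02% and 0.917%. Without scaling 5 of 5 lay beyond 1.96 SE at both times, beside median log2 ratios over all miRNAs of -0.55 and 0.51. With the percentile over all human miRNAs 5 of 5 were above 0 and past 2-fold at 2 h, and 5 of 5 below 0 at 4 h. That scaling moved all miRNAs alike, so these signs say nothing about the list. The medians over all miRNAs were 5.09 and -0.30 in it, beside 5.07 and -0.18 for the list. With the mean of all probes and normexp 3 and 2 of the 5 were above 0 at 2 h. The medians over all miRNAs were 0.032 and 0.22 in these settings, beside 0.0002 and -0.015 for the list. miR-126 and miR-342-3p were detected on none, and miR-143 on the berberine array at 4 h alone.
A second list held 11 miRNAs known as repressors of the LDL receptor or ABCA1, of which 8 were detected on all 4 arrays, and miR-185 stood on both lists. Their log2 ratios at 2 h ran from -0.28 for miR-33a, which is encoded within SREBF2, a gene of sterol regulation, to -0.017 for miR-185, with a median of -0.054 beside -0.02 for all. At 4 h they ran from 0.058 for miR-301b to 0.40 for miR-33a, with a median of 0.26 beside 0.11. Beyond 1.96 SE lay 0 of 8 at 2 h and 2 of 8 at 4 h, beside the 11.5% over all miRNAs, and none was past 2-fold. The 2 were miR-27a at 0.38 (SE 0.16) and miR-128 at 0.31 (SE 0.16). With scaling to the median they were at 0.20 and 0.14, within 1.96 SE, and with the percentile over all human miRNAs at -0.030 and -0.094. They were also within 1.96 SE with quantile normalization (0.16 and 0.23) and the brightest probe (0.14 and 0.11). The same held for the mean of all probes (0.24 and 0.19) and normexp (0.034 and 0.044). Both lay beyond 1.96 SE without scaling and with a fixed set of probes summed. The 8 were below 0 at 2 h and above 0 at 4 h in the scaling used here. Over all 197 miRNAs 96 had this order. Without scaling 8 of 8 lay beyond 1.96 SE at both times, beside median log2 ratios over all miRNAs of -0.55 and 0.51. With that percentile 8 of 8 were above 0 and past 2-fold at 2 h, and 8 of 8 below 0 at 4 h. That scaling moved all miRNAs alike, so these signs say nothing about the list. The medians over all miRNAs were 5.09 and -0.30 in it, beside 5.05 and -0.15 for the list. With scaling to the median 2 of 8 were below 0 at 4 h. With normexp 5 of 8 were above 0 at 2 h and 2 of 8 below 0 at 4 h, with quantile normalization 0 and 1, with the mean over probes 2 and 1, and with the brightest probe 1 and 3. The normexp medians over all miRNAs were 0.22 at 2 h and -0.18 at 4 h, beside 0.11 and 0.039 for the list. For the mean over probes they were 0.032 and 0.014, beside -0.028 and 0.17. For the brightest probe they were 0.0027 and -0.083, beside -0.071 and 0.082. The signal of miR-27a at 4 h was 65.8 for control and 112 for berberine, and that of miR-128 was 80.1 and 131. In the limma fit over both times 0 of the 5 and 0 of the 8 passed an adjusted p of 0.05, and the lowest adjusted p from limma in each list was 0.997.
The ratios at 4 h of the 3 members, 0.14, 0.12 and -0.0091, lay below the median of either list, and those of miR-148a and miR-148b at 2 h were -0.052 and 0.0075. With normexp miR-148a, at 0.16 at 4 h, lay above the median of the second list (0.039) and below that of the first (0.21). The members and lists share their arrays, so these values are given side by side with no test.

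**Figure D4:**
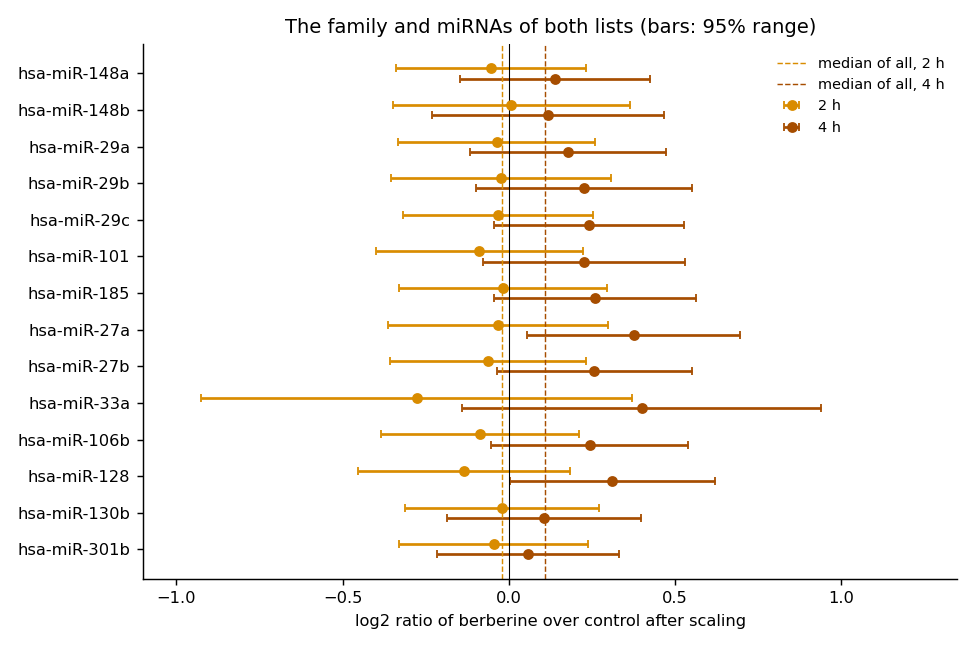
Log2 ratio of berberine over control after scaling at 2 h and 4 h, with bars of 1.96 SE, for miR-148a, miR-148b and the miRNAs of both lists detected on all 4 arrays, with the median of all human miRNAs as dashed lines. miR-148a and miR-148b lie on the dashed lines within their bars, and the bars of miR-27a and miR-128 at 4 h do not reach 0.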

How the data were processed

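Total RNA of HepG2 cells was profiled on 4 arrays, and samples were grouped by their titles. The authors deposited the Feature Extraction 10.7.3.1 output of each array, in which the intensity of a spot, probe or miRNA has its background subtracted and no scaling between arrays. Outlier marks on spots are those of that software. Another deposited table holds the authors' own ratios of treated over control cells and was not used.
Viral miRNAs and control features were not analysed. Total signals of detected miRNAs were converted to log2, and from each was subtracted its array's 75th percentile, computed from the 197 human miRNAs that all arrays detected. Errors were propagated to an SE of each log2 ratio, and 1.96 SE gave a 95% range. A change of 2-fold is the threshold in the methods. Time point and treatment were the terms of the limma fit (limma 3.58.1, R 4.3.3), with Benjamini-Hochberg adjustment. The fit was tested on simulated data with the design of this comparison (197 miRNAs, 20 changed, 20 runs). It found 69.5% of log2 changes of 1 and 100% of log2 changes of 2, while false calls averaged 0.8 and 0.55 a run. Every simulated miRNA had the same variance, taken from the fit, and the same change at both times. On the arrays the median range was 0.20 for the brighter 98 miRNAs and 0.49 for the dimmer 99, so these rates need not hold for them.
The number of arrays limits the precision. Detected signals began at 1.79 to 2.52 on the arrays, where the local background had a median of 24 to 28. Figures were drawn with matplotlib 3.10.9 in Python 3.11.15. The miRNAs named were the members, the other arms of their hairpins, the 3 nearest profiles of each member and the lists. The members and lists were chosen with earlier results of these data known, and the miR-130 and miR-301 family was added after its values were seen. Sequences and neighbouring genes came from RefSeq tables on GRCh38.p14, while the arrays were designed on hg18, so no gene coordinates were matched to the arrays. Other scalings, probe summaries, background correction (normexp on the median spot signal, offset 50) and limma settings were tried as alternatives.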

Additional observations from a re-analysis of the deposited data

Results flagged for a closer look

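The members, their nearest profiles, both lists and the miR-130 and miR-301 family held 21 miRNAs with a ratio at both times. For 16 of the 21, the scaled log2 ratio of berberine over control was below 0 at 2 h and above 0 at 4 h, which was why they were noted. Over all 197 miRNAs 133 had opposite signs, 96 of them in this order. These counts turn on the scaling. Without scaling 21 of the 21 and 182 of the 197 had this order. With scaling to the median 10 of the 21 and 55 of the 197 had it, and miR-148a, at -0.066 and -0.033, was not among them. With the percentile over all 851 miRNAs 0 of the 21 and 0 of the 197 had it, while 21 of 21 and 178 of 197 had the reverse order. With quantile normalization, the brightest probe, the mean over probes and normexp the number was 6, 9, 10 and 10 of 21, beside 51, 40, 49 and 40 of 197. A difference between the times was not tested for lack of replicates, and what follows is the ratio at 4 h minus that at 2 h, with an SE from the measurement alone. Within the family this was so for miR-148a, at 0.19 (SE 0.21), and not for miR-148b, at 0.11 (SE 0.25) with both ratios above 0. Among the nearest profiles, both lists and the miR-130 and miR-301 family the difference was 0.13 for miR-130b, 0.17 for miR-20a, 0.15 for miR-25, 0.21 for miR-29a, 0.25 for miR-29b, 0.27 for miR-29c, 0.32 for miR-101, 0.28 for miR-185, 0.41 for miR-27a, 0.32 for miR-27b, 0.68 for miR-33a, 0.33 for miR-106b, 0.45 for miR-128, 0.10 for miR-301b and 0.065 for miR-301a. Of these 16, 1 lay beyond 1.96 SE of 0, which was miR-128 (SE 0.23), while over all 197 miRNAs 14.2% did so in either direction and 7.61% above 0. The 16 were picked for their signs, so that their differences are positive says nothing more. The brightness of the arrays moved the same way, with a 75th percentile that was 169 for berberine against 243 for control at 2 h and 297 against 225 at 4 h, and its part in the signs was not tested.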

How the results depend on the processing

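The order below is miR-148a, then miR-148b, as log2 ratios, and causes were not tested except where given. Without scaling the ratios were -0.58 and -0.52 at 2 h and 0.54 and 0.52 at 4 h. With that percentile taken over all 851 human miRNAs, which at 2 h fell on the value of an undetected miRNA for berberine, they were 5.05 and 5.11 at 2 h, -0.27 and -0.29 at 4 h, and 0.38 and 0.39 between the control arrays, where miR-152 was at 0.69, and 2.39 and 2.41 in limma. Median scaling gave -0.033 for miR-148a at 4 h and 0.091 and 0.097 between the control arrays. The brightest probe gave -0.040 for miR-148a at 4 h and 0.072 between the control arrays. All other ratios, including those from spots not marked as outliers (chosen after the data were seen), moved by less than their SE. Under quantile normalization miR-148a was at 0 in all 3 comparisons, since it kept its place on every array.
Over both times in limma the ratio was positive but near 0, and its sign was reversed without scaling (-0.020 and -1.45e-05), with median scaling (-0.049 and -0.029), with the brightest probe (-0.043 and -0.016) and, for miR-148b, with quantile normalization (-0.036). With 1 array left out, and with it the time point, so that an arm held 1 array assumed to vary like the others, it ran from -0.017 to 0.10 for miR-148a and from 0.0057 to 0.12 for miR-148b, and it was negative for miR-148a without the control array at 4 h. The adjusted p over the 16 alternatives ran from 0.444 to 1 for each, so 0 passed.
miRNAs past 2-fold numbered 2 at 2 h, 2 at 4 h and 5 between the control arrays. Without scaling they numbered 11, 12 and 9, with the percentile over all 197, 7 and 3, with the brightest probe 6, 4 and 2, with normexp 1, 0 and 0, with the mean of all probes 1, 3 and 0, and with a fixed set of probes summed 1, 2 and 0. Median scaling gave 3 and quantile normalization 2 between the control arrays. limma called 1 miRNA, and 0 under 11 of 16 alternatives, among them those without the control array at 2 h, the berberine array at 2 h and the control array at 4 h. The authors' table of ratios, planned as an alternative, was not run, nor was any alternative for miR-152 at 2 h that needs detection. In limma the time point paired berberine with control, in the place of a replicate block, since each group has 1 array. The fit without the time point (no replicate block) gave 0.043 and 0.063, as with it, with an adjusted p from limma of 0.997.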
